A study of Mus musculus with 6 samples.

Results

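Acod1 and 7 genes of arginine and nitric oxide metabolism were followed across macrophages with and without Tet2: Slc7a2, Nos2, Ass1, Asl, Arg1, Arg2 and Odc1. Acod1 was chosen because its level was higher in Tet2-/- cells in these same arrays, so its difference is a description and carries no test. The other 7 were chosen for their place in the arginine pathway. Each of the 8 genes had 1 probe set among the 25206 measured.

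The macrophages were taken from the peritoneal cavity of C57BL/6J mice 4 days after an injection of 1 mL of 4% thioglycollate, an irritant that draws macrophages into the cavity. One group came from Tet2-deficient (Tet2-/-) mice and the other from wild-type littermates, and every sample had received thioglycollate. The cells were plated in medium with serum and antibiotics, were given no treatment, and yielded total RNA 10 h later. Each genotype held 3 arrays, numbered replicates 4, 5 and 6. The labels call them biological replicates without naming an animal for each, so the p-values cover no more than the spread among these 6 samples. For the age and sex of the mice, the construction of the Tet2 allele and any selection of the macrophages after collection, the labels used here give nothing.

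Arginine enters macrophages through cationic amino acid transporters and is then contested by competing enzymes. Inducible nitric oxide synthase turns it into nitric oxide and citrulline, and citrulline can be rebuilt into arginine by argininosuccinate synthase and lyase. Arginase splits it into urea and ornithine, from which ornithine decarboxylase starts polyamine synthesis. In mouse macrophages Nos2 is a classical marker of activation by bacterial products and interferon gamma, and Arg1 of activation by interleukin-4. Acod1 (formerly Irg1) encodes the mitochondrial enzyme that decarboxylates the citric acid cycle intermediate cis-aconitate to itaconate, a metabolite that inhibits succinate dehydrogenase, and it is strongly induced by bacterial products and interferons.

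The genotype labels need a caution that touches every direction given here. For 4 of the 6 samples the title and the genotype characteristic contradict each other, and groups follow the title. Tet2 itself read 4.35, 3.74 and 3.79 log2 units in wild-type replicates 4, 5 and 6 and 3.80, 4.05 and 3.67 in Tet2-/- replicates 4, 5 and 6, so its level overlapped. Neither the deleted part of Tet2 nor the position of its probes was known from the labels, and the level does not check them. Array medians lay between 2.76 and 2.93 log2 units. Tet2-/- replicate 6 had the highest median and the lowest mean correlation with the other arrays, 0.982 against 0.986 to 0.989. The 12 measured macrophage markers, led by the lysosomal glycoprotein gene Cd68 (10.43 to 11.23) and the complement gene C1qb (10.01 to 10.56), were above the array median on every array.

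Acod1 was higher in every Tet2-/- array than in any wild-type array. Its log2 expression was 3.63, 2.88 and 3.13 in wild-type replicates 4, 5 and 6. In Tet2-/- replicates 4, 5 and 6 it was 4.22, 5.06 and 3.97. The groups did not overlap, although the closest pair, wild-type replicate 4 and Tet2-/- replicate 6, lay near each other, and Tet2-/- replicate 5 stood above the other 5 arrays. The group levels were 3.21 ± 0.382 and 4.42 ± 0.571 log2 units (SD, n = 3 each), a difference of 1.20 or 2.3-fold. Leaving out single arrays gave differences from 0.88, without Tet2-/- replicate 5, to 1.43, without Tet2-/- replicate 6. Grouped by the genotype characteristic in place of the title, the difference was -0.25, so the direction rests on the titles.

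**Figure D1:**
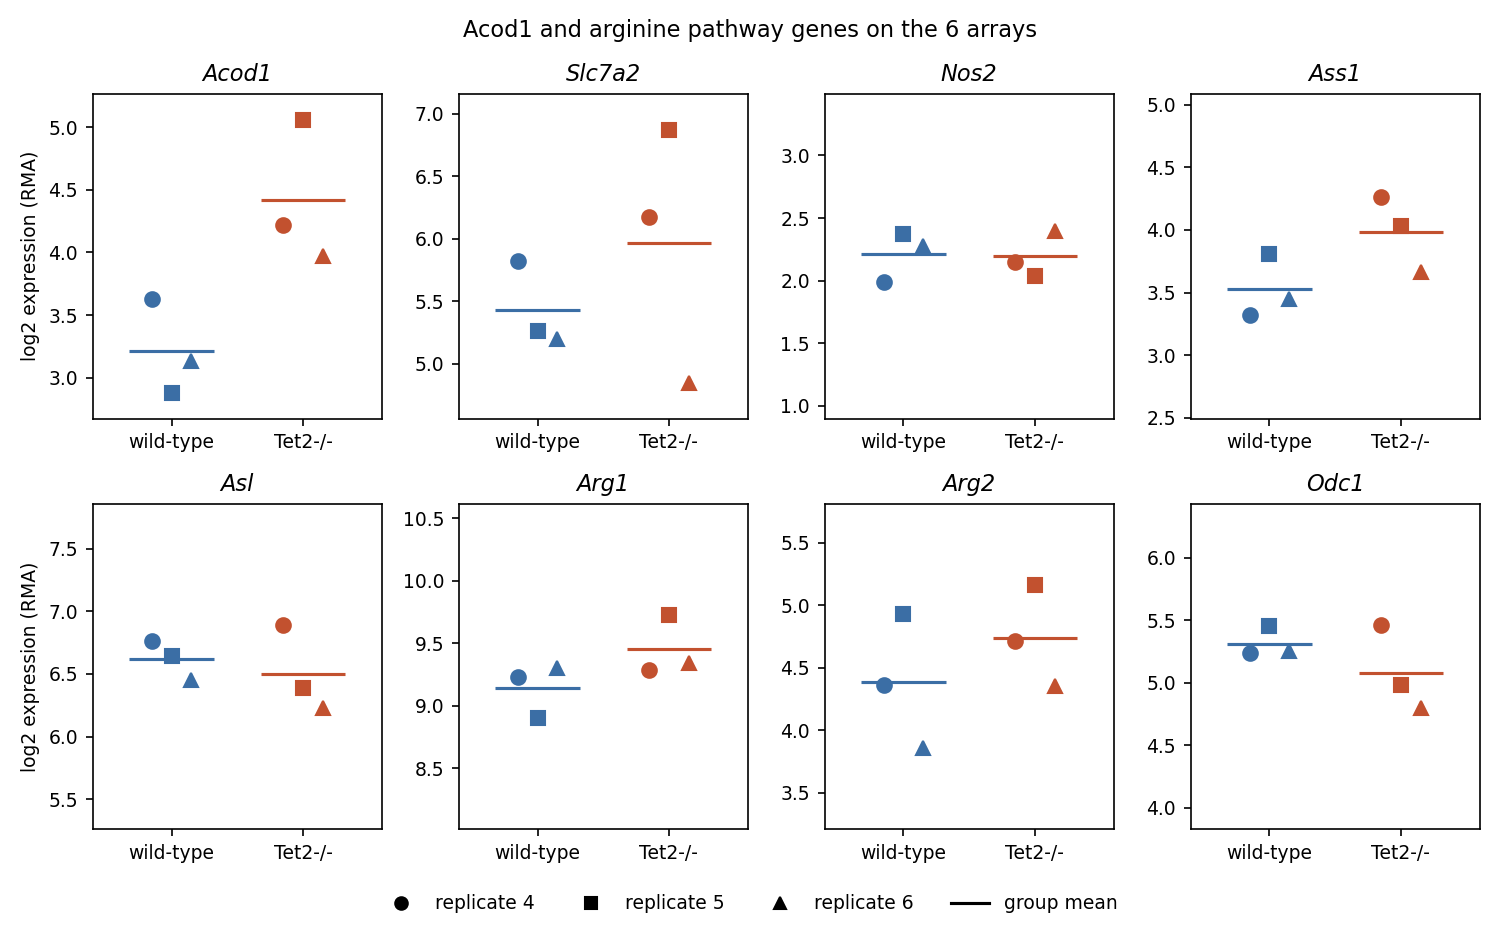
Log2 expression (RMA) of the 8 genes on the 6 arrays, by genotype; symbols mark the replicate number, horizontal lines the group means, and every panel spans the same number of log2 units. The groups of Acod1, which was chosen for its rise in these same arrays, stand apart, 2.88 to 3.63 in wild-type and 3.97 to 5.06 in Tet2-/-. Those of the other 7 genes, not chosen in that way, overlap.

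Tet2 oxidises methylated cytosine, which in mammalian DNA lies mostly in CpG dinucleotides, so the CpGs before the start of Acod1 and Ass1 are shown. These were the members with the largest difference and with the smallest p-value among those tested, and methylation was not measured here. RefSeq's promoter table (GRCm38.p6) held 3 of the 8 genes: Acod1, Ass1 and Odc1. The 250 bases before each start are written 5′ to 3′ with CpGs in capitals, for Acod1 at chr14:103046762-103047011 and for Ass1 at chr2:31470020-31470269, both on the + strand.
Acod1: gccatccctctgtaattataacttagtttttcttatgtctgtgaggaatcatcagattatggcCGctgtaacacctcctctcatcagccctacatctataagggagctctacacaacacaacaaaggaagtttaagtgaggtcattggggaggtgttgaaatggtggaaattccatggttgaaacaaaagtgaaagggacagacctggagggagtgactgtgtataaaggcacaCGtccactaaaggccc
Ass1: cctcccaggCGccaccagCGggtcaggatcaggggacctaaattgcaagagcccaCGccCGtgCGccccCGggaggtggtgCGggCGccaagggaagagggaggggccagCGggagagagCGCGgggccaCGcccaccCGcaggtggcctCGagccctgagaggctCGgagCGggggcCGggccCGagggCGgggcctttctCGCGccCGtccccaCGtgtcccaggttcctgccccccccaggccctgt

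The Acod1 stretch held 2 CpGs and the Ass1 stretch 23, and that of Odc1, not shown, 35. Over all 32851 promoters of the table the median was 6. Fewer CpGs than in Acod1 were found in 18.8% of promoters, and fewer than in Ass1 in 86.7%. The Acod1 stretch also contained the letters TATAAA on the + strand, beginning 28 bases before the start, a string that 12.4% of promoters hold on either strand. The strict kappaB pattern GGGRNNYYCC (R for A or G, Y for C or T, N for any base) is held by 7.25% of promoters. It was not found on either strand of the Acod1, Ass1 or Odc1 stretch. The Acod1 stretch does hold tggaaattcc, which differs from that pattern at the first base alone. Looser patterns were not searched in any promoter, so how common such a near match is remains unknown here.

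None of the 7 arginine pathway genes passed the threshold between genotypes (limma adjusted p = 0.998 for each). The same held for all probe sets, of which 0 of 25206, or 0%, passed an adjusted p of 0.05 in limma. At an unadjusted p under 0.05, limma gave 1 of the 7, Ass1, where 3.61% of all probe sets lay under that value. The groups did not overlap for 0 of the 7, against 7.41% of all probe sets. Over the 7, 4 were higher and 3 lower in Tet2-/-, with a median difference of 0.31 log2 units, and the median over all 23185 named genes was -0.0033. That median became 0.083 when Tet2-/- replicate 5 was left out and 0.095 when wild-type replicate 6 was.

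Slc7a2 encodes CAT2, the cationic amino acid transporter that brings arginine into activated macrophages. It read 5.82, 5.26 and 5.20 log2 units in wild-type replicates 4, 5 and 6 and 6.17, 6.87 and 4.85 in the Tet2-/- replicates of the same numbers. Tet2-/- replicates 4 and 5 were above all wild-type arrays and replicate 6 was below them, so Tet2-/- arrays were both the highest and the lowest of the 6. The group means were 5.43 ± 0.342 and 5.96 ± 1.03 (SD, n = 3 each). The difference of 0.54 had a 95% interval from -0.45 to 1.52 (limma adjusted p = 0.998). Leaving out Tet2-/- replicate 5 gave 0.083, and leaving out Tet2-/- replicate 6 gave 1.09.

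Nos2, the inducible nitric oxide synthase, was below the array median on all 6 arrays. Its log2 values were 1.99, 2.37 and 2.28 in wild-type and 2.15, 2.04 and 2.40 in Tet2-/- replicates 4, 5 and 6. The values of both groups interleaved within 0.41 log2 units. The difference was -0.017 with a 95% interval from -0.38 to 0.34 (limma adjusted p = 0.998), that is, from 0.771 to 1.27-fold. RMA compresses differences at such low values, and the interval covers the spread between arrays only.

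Ass1 and Asl are the synthase and the lyase that rebuild arginine from citrulline. Ass1 read 3.32, 3.81 and 3.45 in wild-type and 4.26, 4.03 and 3.66 in Tet2-/- replicates 4, 5 and 6. Tet2-/- replicates 4 and 5 exceeded all wild-type arrays, and replicate 6 lay below wild-type replicate 5. The difference was 0.46 log2 units with a standard error of 0.194 (95% interval 0.018 to 0.90, unadjusted p = 0.043, limma adjusted p = 0.998). Over the other settings tried, the limma adjusted p ran from 0.331 to 1 and the difference from 0.02, grouped by characteristic, to 0.62, without Tet2-/- replicate 6. Asl read 6.76, 6.64 and 6.45 in wild-type and 6.89, 6.39 and 6.23 in Tet2-/-, with the highest and the lowest arrays both Tet2-/-. Its difference was -0.11 (95% interval -0.54 to 0.31, limma adjusted p = 0.998) and turned to 0.023 without Tet2-/- replicate 6. The difference between the changes of Ass1 and Asl was not tested.

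Arg1, the cytosolic arginase, was above the array median on every array. It was at 9.23, 8.90 and 9.30 in wild-type and at 9.29, 9.73 and 9.34 in Tet2-/- replicates 4, 5 and 6. Tet2-/- replicate 5 was the highest array and wild-type replicate 5 the lowest, while the other 4 lay between 9.23 and 9.34. The group means were 9.14 ± 0.214 and 9.45 ± 0.241 (SD, n = 3 each), a difference of 0.31 (95% interval -0.08 to 0.70, limma adjusted p = 0.998). With Tet2-/- replicate 5 left out it was 0.17, and with wild-type replicate 5 left out 0.19.

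Arg2, the mitochondrial arginase, varied more within each genotype. Its values were 4.36, 4.93 and 3.86 in wild-type and 4.71, 5.16 and 4.35 in Tet2-/- replicates 4, 5 and 6. In both genotypes replicate 5 was highest and replicate 6 lowest. The difference of 0.36 (95% interval -0.29 to 1.00, limma adjusted p = 0.998) was 0.095 when wild-type replicate 6 was left out, 0.15 when Tet2-/- replicate 5 was and 0.63 when wild-type replicate 5 was.

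Odc1, the ornithine decarboxylase that begins polyamine synthesis, was at 5.24, 5.45 and 5.25 in wild-type and at 5.46, 4.98 and 4.80 in Tet2-/- replicates 4, 5 and 6. Tet2-/- replicates 5 and 6 were below every wild-type array and replicate 4 was level with the highest of them. The difference was -0.23 (95% interval -0.65 to 0.18, limma adjusted p = 0.998), with -0.093 when Tet2-/- replicate 6 was left out and -0.42 when Tet2-/- replicate 4 was.

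**Figure D2:**
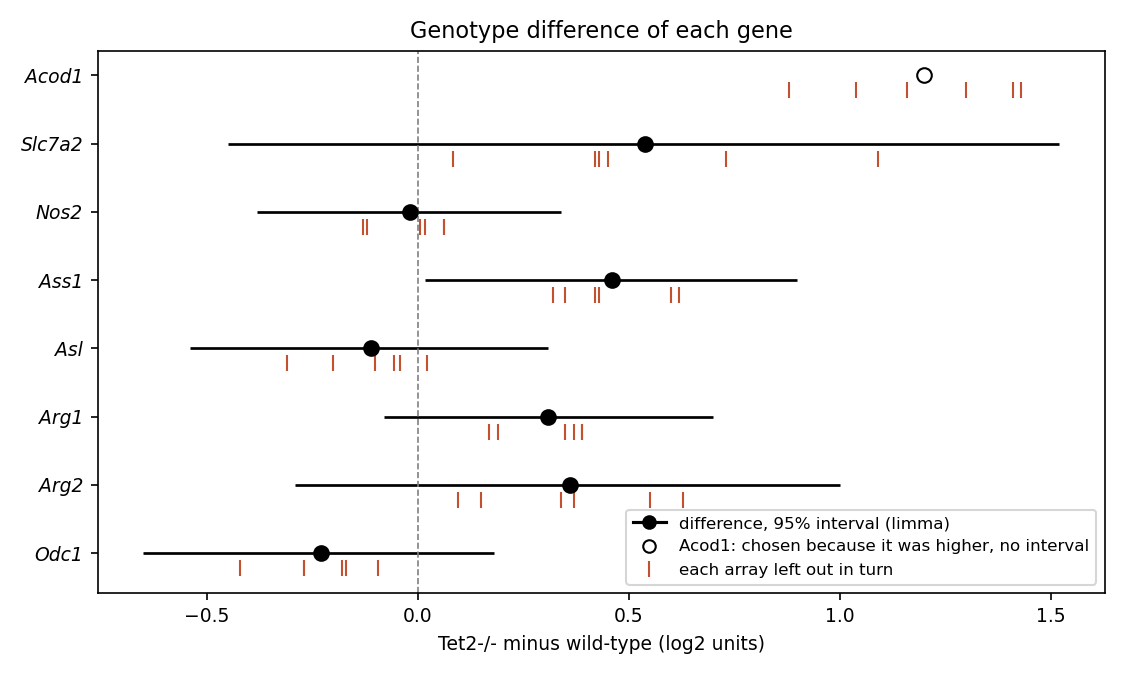
Tet2-/- minus wild-type difference of each gene in log2 units (filled points with 95% limma intervals; Acod1 as an open point without one), with the differences after leaving out each array as ticks below. Of the 7 intervals, that of Ass1 (0.018 to 0.90) lies above 0 before adjustment, and the ticks of Slc7a2 run from 0.083 to 1.09.

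The balance of nitric oxide synthase against arginase overlapped between the genotypes. Within each array, the Nos2 value minus the Arg1 value was -7.24, -6.53 and -7.02 in wild-type and -7.14, -7.69 and -6.94 in Tet2-/- replicates 4, 5 and 6. Only differences of this quantity between arrays carry meaning, since probe sets of different genes do not share a scale. The group means were -6.93 ± 0.363 and -7.26 ± 0.388 (SD, n = 3 each), a difference of -0.33 (exact two-sided permutation p = 0.5, in a design of 3 arrays against 3 that cannot give less than 0.1 and so cannot pass the threshold). It was -0.11 when Tet2-/- replicate 5 was left out and -0.13 when wild-type replicate 5 was. Over the 6 arrays Nos2 spanned 0.41 and Arg1 0.83 log2 units.

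For each of the 7 genes not chosen for a rise, the highest array was a Tet2-/- array, although 3 of them had lower Tet2-/- means. It was replicate 5 for Slc7a2, Arg1 and Arg2, replicate 4 for Ass1, Asl and Odc1, and replicate 6 for Nos2. The margin over the highest wild-type array was small for Odc1, 5.46 against 5.45, and Nos2, 2.40 against 2.37. How often this held over all probe sets was not counted. Acod1, chosen for its rise, was highest in Tet2-/- replicate 5. The lowest array was Tet2-/- replicate 6 for Slc7a2, Asl and Odc1 and a wild-type array for the other 5 of the 8 genes. Across 4059 named genes with an SD of at least 0.3 over the 6 arrays, those whose profile was most like that of Acod1 by Pearson's r over the 6 arrays were Cysltr1, a cysteinyl leukotriene receptor (0.989), Zbtb34 (0.983), Marco, a scavenger receptor of macrophages (0.979), Fam214a (0.975), Ly6a2 (0.974) and Itga4, the integrin alpha 4 chain (0.970). Cysltr1 read 5.26, 4.69 and 4.84 in wild-type and 5.57, 5.92 and 5.32 in Tet2-/- replicates 4, 5 and 6. Marco read 5.19, 4.51 and 4.87 and then 5.57, 5.95 and 5.21 in the same order. As for Acod1, replicate 5 was the highest Tet2-/- array and the lowest wild-type array in both. Choosing genes by their r with Acod1 favours such a shared order, so it is no separate result. The arrays share their genotype contrast and their normalization, and 89 of the 4059 genes had an r over 0.9.

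Genes around nitric oxide synthesis did not shift together. Of 17 measured genes for arginine transport, nitric oxide synthases, their tetrahydrobiopterin cofactor and nitric oxide sensing, 8 were higher and 9 lower (median -0.03). In limma 0 passed, with 1 at an unadjusted p under 0.05, where 3.61% of all probe sets lay. Ddah1, which degrades an endogenous inhibitor of nitric oxide synthases, was at 2.52, 2.46 and 2.57 in wild-type and 2.95, 2.76 and 2.89 in Tet2-/- replicates 4, 5 and 6, so its groups did not overlap, although 5 of the 6 values lay below the array median. Its difference was 0.35 (limma adjusted p = 0.998). The related Ddah2 differed by -0.33, with -0.54 without wild-type replicate 4 and -0.11 without either wild-type replicate 6 or Tet2-/- replicate 5. Gch1, the entry enzyme of tetrahydrobiopterin synthesis, was at 5.52 ± 0.116 in wild-type and 5.26 ± 0.131 in Tet2-/- cells (SD, n = 3 each), a difference of -0.26. Qdpr, which regenerates that cofactor, differed by -0.23, and by -0.13 without Tet2-/- replicate 5. The endothelial synthase gene Nos3 was below the array median on every array.

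Past ornithine, the enzymes leading to polyamines showed small differences in both directions. Of 23 measured genes of ornithine, proline, polyamine and creatine metabolism, 12 were higher and 11 lower (median 0.0067). In limma 0 passed, with 3 at an unadjusted p under 0.05, where 3.61% of all probe sets lay. Azin1, the antizyme inhibitor that protects ornithine decarboxylase from degradation, was at 8.27, 8.56 and 8.74 in wild-type and 8.28, 8.03 and 8.16 in Tet2-/- replicates 4, 5 and 6. It differed by -0.37 (limma adjusted p = 0.998), and 2 of 3 Tet2-/- arrays were below all wild-type arrays. Dhps, which uses spermidine to modify the translation factor eIF5A, differed by -0.39, and by -0.57 without wild-type replicate 4 and -0.25 without Tet2-/- replicate 5.

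The enzymes that turn arginine into creatine had the highest of the 12 positive differences of that list. Gatm, which joins arginine and glycine in the first step, was at 5.99, 6.11 and 6.60 in wild-type and 6.82, 7.31 and 6.33 in Tet2-/- replicates 4, 5 and 6. Its groups overlapped, because Tet2-/- replicate 6 lay below wild-type replicate 6, and the difference was 0.59 (0.34 without Tet2-/- replicate 5, limma adjusted p = 0.998). Gamt, the methyltransferase of the second step, was at 3.97, 4.15 and 4.25 and then at 4.53, 4.57 and 4.29. Its groups did not overlap, and the difference of 0.34 ran from 0.26 to 0.43 when single arrays were left out (limma adjusted p = 0.998).

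Around itaconate, the citric acid cycle genes stayed close to 0 as a list. Of 30 measured genes of the cycle and of itaconate's metabolism and reported targets, 10 were higher and 20 lower (median -0.035). In limma 0 passed, with 1 at an unadjusted p under 0.05, where 3.61% of all probe sets lay. That gene was Atf3, a stress-induced transcription factor reported to respond to itaconate derivatives. Atf3 was at 9.68, 9.84 and 9.80 in wild-type and 9.39, 9.15 and 9.39 in Tet2-/- replicates 4, 5 and 6, a difference of -0.46 whose groups did not overlap (limma adjusted p = 0.998). Sdha, the flavoprotein subunit of the succinate dehydrogenase that itaconate inhibits, differed by 0.22, and by 0.10 without Tet2-/- replicate 5. Idh3a, a subunit of the mitochondrial isocitrate dehydrogenase, differed by -0.26, and by -0.16 without wild-type replicate 6 or Tet2-/- replicate 6. Sugct, which transfers coenzyme A between organic acids, differed by -0.18 (-0.28 without wild-type replicate 4) and was below the array median on all 6 arrays.

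**Figure D3:**
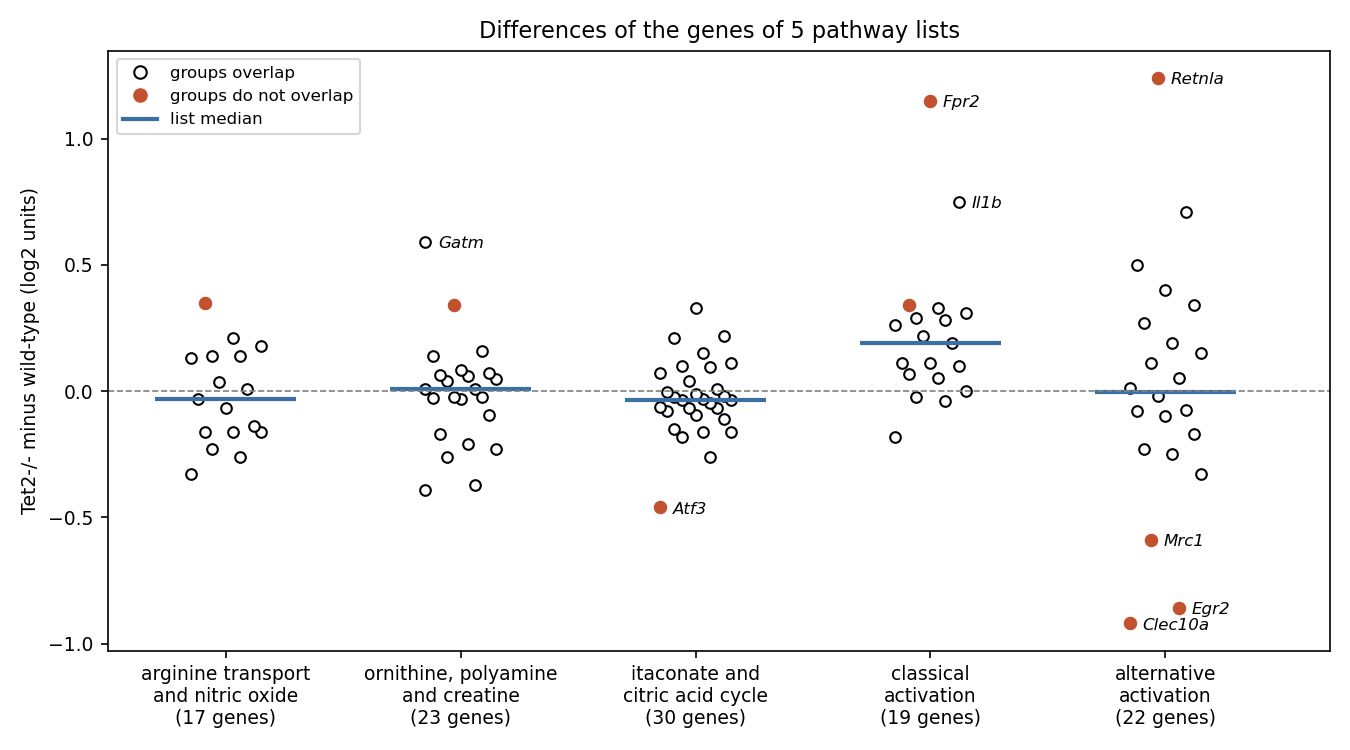
Tet2-/- minus wild-type differences (log2 units) of the measured genes of 5 pathway lists, 1 point a gene; filled points are genes whose groups do not overlap and bars are list medians. The classical activation list has the highest median, 0.19, and the alternative activation list holds the extremes Retnla (1.24) and Clec10a (-0.92).

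Classical activation genes other than Nos2 had mostly positive differences, as Acod1 did. Of 19 measured, 15 were higher, 3 lower and 1 equal (median 0.19), against 49.2% higher over all named genes. None passed in limma, and 3 had an unadjusted p under 0.05, as did 3.61% of all probe sets: Fpr2, Il1b and Socs3. Some of these genes were known from earlier results of these data to be higher, so the count is not independent of them. Fpr2, a formyl peptide receptor, was at 2.60, 1.63 and 2.20 in wild-type and 3.75, 3.32 and 2.81 in Tet2-/- replicates 4, 5 and 6. Its groups did not overlap and it differed by 1.15 (limma adjusted p = 0.998), although 4 of the 6 values lay below the array median. Il1b, the interleukin-1 beta gene, was at 3.43, 3.03 and 2.84 and then at 3.65, 4.54 and 3.36, a difference of 0.75 with overlapping groups (0.41 without Tet2-/- replicate 5). Socs3, a feedback inhibitor of cytokine signalling, was at 3.47 ± 0.135 and 3.81 ± 0.184 (SD, n = 3 each), and its groups did not overlap. Irf1, the interferon-induced transcription factor, differed by 0.33, with a single overlap between wild-type replicate 5 at 4.61 and Tet2-/- replicate 6 at 4.60. Of the 19, 5 were below the array median on every array, as Nos2 was: Il6, Il12b, Cxcl9, Il23a and Gpr18. All of these but Il12b are among the 15 counted as higher.

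Alternative activation genes, to which Arg1 is usually counted, differed in both directions. Of 22 measured, 11 were higher and 11 lower (median -0.0033). In limma 0 passed, with 5 at an unadjusted p under 0.05, where 3.61% of all probe sets lay. Retnla, which encodes a small secreted protein typical of interleukin-4 stimulation, was at 5.26, 5.51 and 5.00 in wild-type and 5.70, 6.77 and 7.03 in Tet2-/- replicates 4, 5 and 6, a difference of 1.24 (limma adjusted p = 0.998). The mannose receptor gene Mrc1 ran the other way, at 6.99, 7.17 and 6.89 in wild-type and 6.41, 6.30 and 6.58 in Tet2-/-, a difference of -0.59. Clec10a, a galactose-type lectin, differed by -0.92, and Egr2, a transcription factor of alternative activation, by -0.86 (limma adjusted p = 0.964 for Egr2). For each of these 4 genes the groups did not overlap, as for 7.41% of all probe sets. They were named for the smallest unadjusted limma p of the list, which favours such separation. Arg1 was not chosen in that way, and its groups overlapped.

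Markers of other macrophage states and of B cells were also highest in the Tet2-/- arrays with the most Acod1, replicates 4 and 5. Their part in the Acod1 difference was not tested. The pattern was not theirs alone. General macrophage markers had a mean deviation from the 6-array mean of 0.11, -0.10 and -0.037 in wild-type and 0.14, 0.21 and -0.32 in Tet2-/- replicates 4, 5 and 6. The mean deviation of eosinophil markers was also highest in Tet2-/- replicates 4 and 5, at 0.23 and 0.16. That list shares Alox15 with the resident macrophage list, and Alox15 read 5.93 and 6.91 there. Siglecf, also of that list, read 4.65 and 3.58, below every wild-type array. Of its 7 measured genes 4 were higher and 3 lower in Tet2-/-, with a median difference of 0.027. Markers of neutrophils, mast cells, T and NK cells and mesothelium were not highest in both replicates. In bulk samples, fewer cells of a type and less RNA per cell cannot be told apart. Where 49.2% of all named genes were higher in Tet2-/-, 11 of 13 measured genes of resident peritoneal macrophages were. Above the array median on every array were 10688 of the 23185 named genes and all 13 of these. Their mean deviation from the 6-array mean was -0.085, -0.52 and -0.35 in wild-type and 0.56, 0.89 and -0.49 in Tet2-/- replicates 4, 5 and 6. Their summed linear signal ran from 2520 to 2963 in wild-type and from 2555 to 4179 in Tet2-/-. Replicate 6 was thus the lowest Tet2-/- array for this list, for Slc7a2 and for Acod1, although Acod1 there still exceeded every wild-type array.

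Against 49.2% of all named genes, 8 of 11 measured markers of monocytes and small peritoneal macrophages were higher. Their mean deviation was 0.012, -0.33 and -0.29 in wild-type and 0.18, 0.60 and -0.18 in Tet2-/- replicates 4, 5 and 6, and the summed signal ran from 1388 to 2396 in wild-type and from 1489 to 3756 in Tet2-/-. Ccr2, the receptor that brings monocytes into tissue, was at 6.77, 6.53 and 6.51 in wild-type and 8.12, 8.47 and 7.36 in Tet2-/- replicates 4, 5 and 6. The members did not all run one way. Itgax, the CD11c integrin gene, was at 7.05, 6.80 and 7.11 in wild-type and 5.68, 5.22 and 5.59 in Tet2-/-, a difference of -1.49 with a limma adjusted p of 0.197, and no probe set had a smaller one. Fn1, the fibronectin gene, differed by 0.34 with overlapping groups, and by 0.0033 when Tet2-/- replicate 5 was left out and 0.71 when Tet2-/- replicate 6 was.

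Beside 49.2% of all named genes, 8 of 10 measured B-cell genes were higher. The exceptions were Vpreb3, at -0.26, and Cd22, an inhibitory receptor and the brightest of the list, at 6.21, 6.15 and 6.07 in wild-type and 5.50, 5.29 and 5.23 in Tet2-/-, a difference of -0.80 whose groups did not overlap (limma adjusted p = 0.483). Their summed signal was 137 to 182 in wild-type and 204, 393 and 111 in Tet2-/- replicates 4, 5 and 6, with the B-cell transcription factor genes Pax5 and Ebf1 and Vpreb3 below the array median on all 6.

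Neutrophils, a cell type that can express Acod1, were checked through a list of their own. Of 14 measured neutrophil markers, 9 were higher in Tet2-/-, against 49.2% of all named genes. Below the array median on all 6 arrays were 8 of the 14, among them S100a9, Ly6g, Cxcr2 and Retnlg. So were 10196 of all 23185 named genes. The summed signal of the list was 283 to 315 in wild-type and 327 to 340 in Tet2-/-. Its brightest genes, Csf3r and S100a8, differed by 0.30 and 0.17, and Mmp8, also bright, by -0.11. Bright genes dominate such a sum. The mean deviation, which weighs each gene alike, overlapped between genotypes. It was -0.05, 0.014 and -0.072 in wild-type and 0.0061, -0.029 and 0.13 in Tet2-/- replicates 4, 5 and 6. Leaving out single arrays took Csf3r from 0.14 to 0.56 and S100a8 from -0.19 to 0.51. The part of neutrophils in the Acod1 difference was not tested. Below the array median on all 6 arrays were also 5 of 7 eosinophil, 6 of 9 mast cell and 9 of 13 T and NK cell markers. The count to set beside these is again 10196 of 23185 named genes. The brighter eosinophil markers, both also expressed by some macrophages, differed in opposite directions. Siglecf, a sialic acid-binding lectin, was at 5.37, 5.58 and 5.02 in wild-type and 4.65, 3.58 and 4.12 in Tet2-/- replicates 4, 5 and 6, a difference of -1.21 without overlap (limma adjusted p = 0.879). Alox15, a lipoxygenase also among the resident macrophage genes, was at 4.14, 3.10 and 3.10 and then at 5.93, 6.91 and 3.74, a difference of 2.08 with overlapping groups (limma adjusted p = 0.998). The summed signal of 10 mesothelial and fibroblast genes ran from 408 to 704 in wild-type and from 457 to 604 in Tet2-/-.

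**Figure D4:**
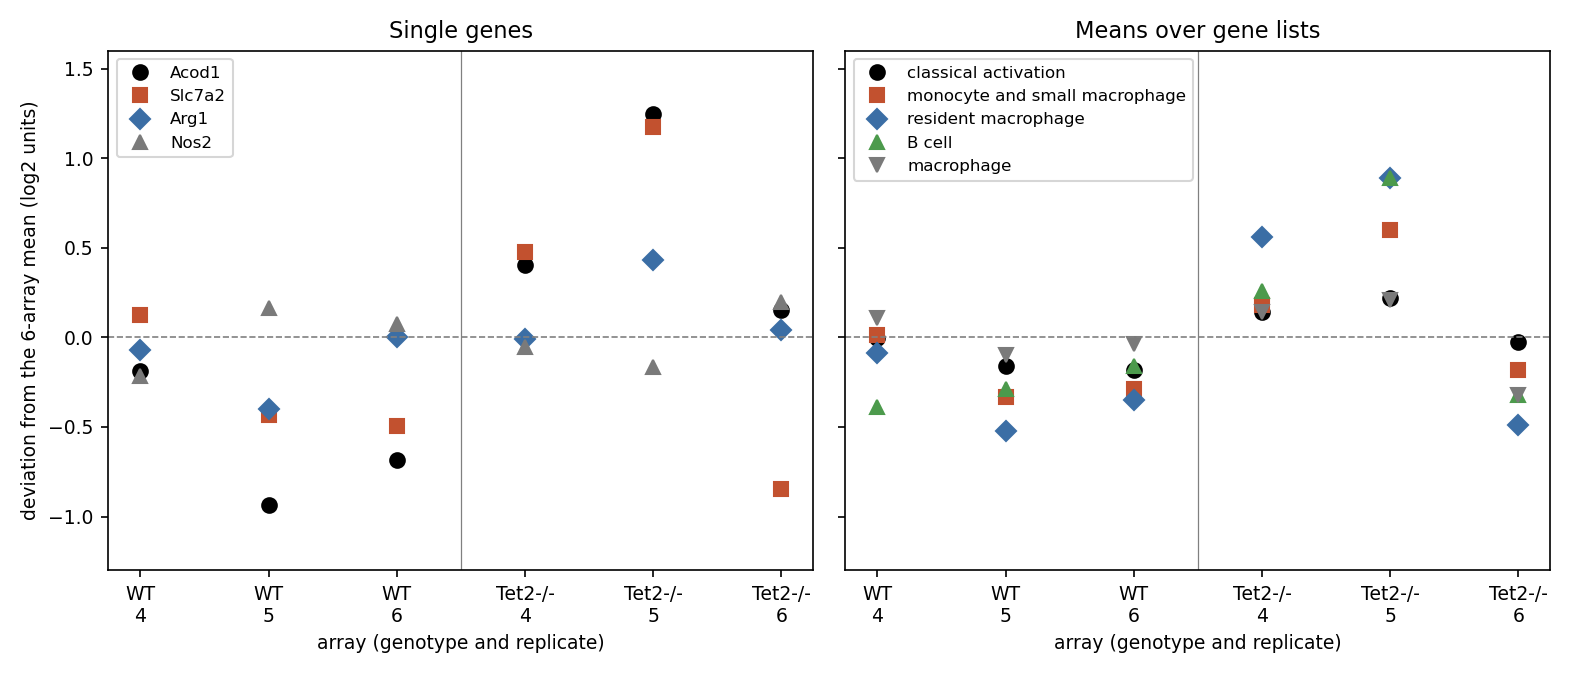
Deviation from the 6-array mean in log2 units on each array, for 4 single genes (left) and for the mean over the genes of 5 lists (right); the vertical line parts wild-type (WT) from Tet2-/- arrays. Tet2-/- replicate 5 is the highest array for Acod1, Slc7a2 and Arg1 and for the resident macrophage list (0.89) and the B-cell list (0.89), and Tet2-/- replicate 6 is the lowest of the 3 Tet2-/- arrays for each of these lists.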

How the data were processed

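The deposited table holds log2 expression values of 25206 probe sets on 6 Affymetrix arrays, for which the submitters' processing notes name RMA and affy 1.36.1 as the authors' tools. The log2 scale was read from the values, 0.19 to 12.21, and whether the arrays were normalized together is not given in the sources used here. The platform annotation named 1 gene for 23185 probe sets and none for 2021. No genome build is named, so coordinates are given for promoters alone, from RefSeq.

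Genotypes were compared with limma 3.58.1 under R 4.3.3, as a linear model without covariates and a two-sided moderated test (lmFit, eBayes), over all probe sets, with Benjamini-Hochberg adjustment and a threshold of 0.05. The fit was tested on simulated data. The genes and all lists were chosen with earlier results of these data known, so list counts and medians carry no test. Named from the lists were the 4 genes with the smallest p in each of 5 pathway lists and the 2 with the highest mean in each of 9 marker lists, the latter where a result touches them; other list genes were named after their values were seen. A difference of 1 log2 unit is a fold of 2. The number of arrays limits the precision, and background per probe set was not analysed here. Alternatives were the grouping by characteristic, a replicate block, array weights, robust variances with an intensity trend, median centring, quantile normalization, the brighter probe sets, other thresholds and leaving out each array.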

Additional observations from a re-analysis of the deposited data

How the results depend on the processing

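The genotype characteristic as grouping moved the Acod1 difference to -0.25, turned those of Nos2 and Odc1 to 0.05 and 0.06, and turned the Nos2 minus Arg1 difference to 0.027. It took the median difference from 0.19 to -0.063 for the classical activation list and from 0.56 to 0.013 for the resident macrophage list. The samples then differ, and the cause was not tested. Of 180 alternative list medians over all settings, 16 moved by the spread between replicates or more. Array weights turned Asl to 0.042. Leaving out single arrays gave 0.88 to 1.43 for Acod1, -0.13 to 0.062 for Nos2, -0.31 to 0.023 for Asl and 0 to 19 probe sets past the threshold, the 19 without Tet2-/- replicate 6. Nos2 was 0.017, 0.062, 0.062 and 0.0067 without wild-type replicate 6, wild-type replicate 5, Tet2-/- replicate 5 and Tet2-/- replicate 4. Probe sets past the threshold numbered 2 with array weights, 1 without wild-type replicate 4 and 910 at an unadjusted p under 0.05, and members numbered 1 at that p. Of 103 alternative values of member differences, 94 kept their direction and their side of the threshold or moved by less than the spread between replicates. Some of the 94 could not change direction. The replicate block, the robust variances with an intensity trend and the brighter probe sets leave each difference as it was and can change only its p-value.

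With the replicate number as a block, 0 members and 0 probe sets passed, as without it. The block cannot change a difference, because each number occurs once in each genotype, so that of Acod1 remained 1.20. Same-numbered arrays deviated from their group means with correlations of 0.15, -0.22 and 0.11, so the numbers were not taken as pairs.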
